A study of Rattus norvegicus with 6 samples.

Results

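The genes described here encode the aminoacyl-tRNA synthetases and the enzymes that modify tRNA, as read in RNA captured from GH4C1 cells by oligo pool A or oligo pool B. They were chosen by gene symbol alone, and no count entered the choice, but the group was put forward with differences between the pools already known, so its counts of genes are a description. Symbols of the form Aars or Aars2, with any of the amino acid letters, and Farsa, Farsb and Eprs gave 37 synthetase genes. Symbols starting with Trm or Nsun, or naming Adat and Elp genes, gave 29 modification genes. Together they make 66 of the 32883 genes in the count table. Of these, 60 passed the filter on low counts and were tested, 34 synthetase and 26 modification genes.

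GH4C1 is an established rat pituitary line that makes growth hormone and prolactin, with a wild type genotype per the labels. All 6 libraries came from psoralen-treated cells; psoralen links base-paired strands of nucleic acid, and the study sought RNAs paired directly with the noncoding RNA Neat1. Oligo pool A and oligo pool B had 3 libraries each, and the labels name neither the sequences of a pool nor a control pool. The labels do not say whether the libraries came from separate cultures, so p-values measure the spread between these libraries, which may be technical. Total counts per library lay between 1826390 and 3685899. A count of 0 in the deepest and the shallowest library allows up to 0.814 and 1.64 CPM (counts scaled to a fixed library total, the usual CPM unit), a floor of 3 counts that covers counting error only. All 8 markers of the lactotroph and somatotroph lineage had counts in every library, with Prl at 713 CPM in pool A and 445 CPM in pool B. Of 12 markers of other cell types, 11 were in the table, with a summed level of 66.8 to 90.3 CPM in pool A and 76.7 to 90.3 CPM in pool B. Tshb and Fshb were listed at 0 in every library, while Lhb was higher with pool B (11.9 and 42.0 CPM) and Sox2 higher with pool A (46.3 and 23.3 CPM). The summed level of the 8 lineage markers ran from 7796 to 8737 CPM in pool A and from 30588 to 37700 CPM in pool B, a gap carried by Chgb (means of 3741 and 31688 CPM). Without Chgb, left out after its values were seen, the other 7 summed to 4341 to 4511 CPM in pool A and 3024 to 3265 CPM in pool B; Prl, Pitx1, Chga and Scg2 were higher with pool A. The part of cell makeup in the results was not tested.

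Aminoacyl-tRNA synthetases join each amino acid to its tRNA. Most amino acids have a cytosolic enzyme and a separate mitochondrial enzyme, which carries the suffix 2 in its symbol. Several cytosolic enzymes sit together in a multi-synthetase complex. Genes are sorted here by the suffix alone. A gene without it is called cytosolic, even where its product also serves mitochondria. Modification enzymes methylate, thiolate, deaminate or otherwise alter nucleotides of the tRNA, which affects its folding and how it reads codons.

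The mRNAs of the cytosolic synthetases went both ways between the pools. Of 20 genes, all tested, 7 were higher with pool A, 7 were higher with pool B and 6 did not pass the threshold, an adjusted p of 0.05 in edgeR's quasi-likelihood test over all genes. Among all 11582 tested genes 40.6% passed, with 18.6% in favour of pool A and 22.0% in favour of pool B. Differences over 2-fold were found for 10 of the 20 cytosolic genes, against 25.4% of all tested genes and 32.3% of those with a mean of at least 100 counts, as all 20 had. The 20 genes had a median of 882 counts per library, and among all tested genes with a mean of at least 100 counts 61.7% passed, at a median of 219 counts; the share among the 20 was not tested against it. Input RNA was not analysed here, so more of a transcript in the cells and more of it recovered by a pool cannot be told apart.

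Qars, which encodes the glutaminyl enzyme, showed the widest difference of any synthetase gene. It had 1056, 928 and 915 CPM in pool A replicates 1, 2 and 3, and 108, 109 and 96.9 CPM in pool B. The lowest pool A library thus lay far above the highest pool B library. The log2 fold change of pool A over pool B was 3.36 with SE 0.14 (edgeR adjusted p 2.77e-16). Wars, for tryptophan, followed with 484, 535 and 529 CPM in pool A and 132, 149 and 116 CPM in pool B, a log2 fold change of 2.12 with SE 0.14 (edgeR adjusted p 1.06e-12). Lars, for leucine, had 950, 970 and 784 CPM against 282, 228 and 249 CPM, with a log2 fold change of 1.98 with SE 0.15. Neither gene's libraries overlapped between the pools.

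Tars, for threonine, was the most even of these genes within each pool. Its values were 2015, 2019 and 2037 CPM in pool A and 609, 606 and 605 CPM in pool B, a log2 fold change of 1.89 with SE 0.13 (edgeR adjusted p 2.78e-12). Sars, for serine, had 517, 435 and 552 CPM in pool A and 148, 174 and 158 CPM in pool B, a log2 fold change of 1.80 with SE 0.13. Yars, for tyrosine, had 413, 431 and 413 CPM in pool A and 173, 152 and 175 CPM in pool B, a log2 fold change of 1.47 with SE 0.14. Every pool A library exceeded every pool B library for these 3 genes as well.

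Eprs stood at the other end. It encodes a single protein that charges both the glutamate and the proline tRNAs, and it had 857, 757 and 821 CPM in pool A and 4131, 4029 and 4488 CPM in pool B. The log2 fold change was -2.23 with SE 0.14 (edgeR adjusted p 4.11e-13). Aars, for alanine, had 370, 356 and 392 CPM in pool A and 1154, 1388 and 1337 CPM in pool B, a log2 fold change of -1.65 with SE 0.13. For Nars, which serves asparagine, the values were 229, 221 and 250 CPM against 646, 673 and 784 CPM, and the log2 fold change was -1.44 with SE 0.13. Cars, for cysteine, had 166, 165 and 225 CPM against 372, 521 and 434 CPM, with a log2 fold change of -1.11 with SE 0.14. Pool B was higher in every library comparison for all 4 genes.

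Smaller differences in favour of pool B completed the cytosolic set. Iars (isoleucine) and Kars (lysine) had log2 fold changes of -0.85 ± 0.14 and -0.74 ± 0.20 (± SE). Vars (valine) had one of -0.33 with SE 0.13 (edgeR adjusted p 0.0489), the member just past the threshold. The call of Vars was lost in 8 of 14 alternative fits, with adjusted p-values up to 0.315 without pool A replicate 2, and that of Kars without pool B replicate 3 (edgeR adjusted p 0.0915). The 6 cytosolic genes that did not pass had log2 fold changes between -0.42 (Hars, histidine) and 0.27 (Rars, arginine). Mars encodes the methionyl enzyme and had 1097, 1178 and 1276 CPM in pool A and 1002, 1121 and 1165 CPM in pool B, ranges that overlapped. Its log2 fold change was 0.26 with SE 0.13 (edgeR adjusted p 0.117), and it passed with DESeq2 (0.0334), limma-voom (0.0192) and upper-quartile factors (0.0247).

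**Figure D1:**
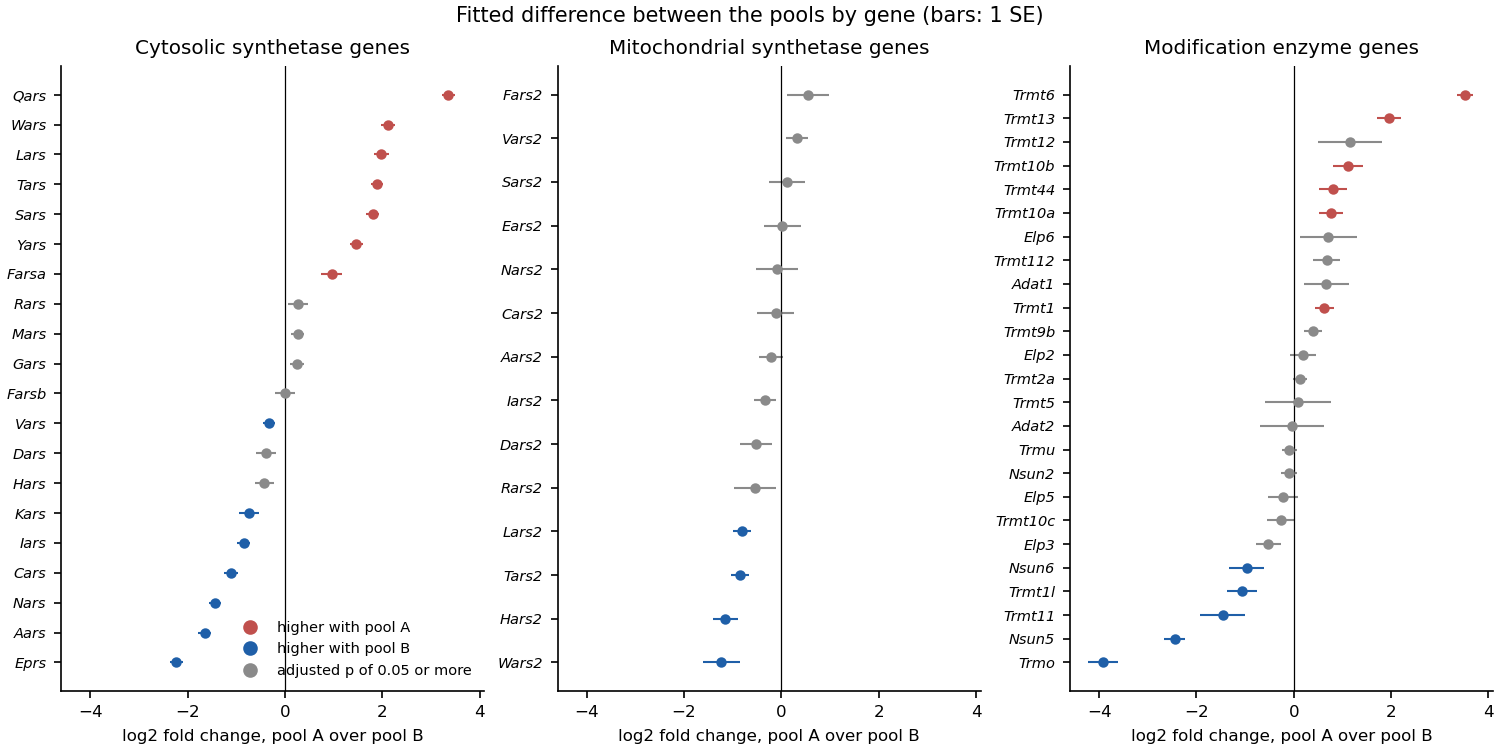
Log2 fold change of pool A over pool B (horizontal axis) for 59 of the 60 tested genes (the other one is not reported here), in 3 panels for cytosolic synthetase, mitochondrial synthetase and modification genes. Points are edgeR estimates from 3 libraries a pool, bars are 1 SE, red and blue mark genes higher with pool A or pool B, and grey marks genes that did not pass; the cytosolic genes run from -2.23 (Eprs) to 3.36 (Qars), and none of the mitochondrial genes is red.

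Both directions occurred inside and outside the multi-synthetase complex. Of the 8 genes for its synthetases, 2 were higher with pool A (Qars and Lars), 3 higher with pool B (Eprs, Iars and Kars), while Mars, Rars and Dars did not pass. Of the 12 cytosolic genes outside the complex, 5 were higher with pool A, against 4 for pool B. Together 5 of 8 genes inside and 9 of 12 outside passed, beside 61.7% of all tested genes with a mean of at least 100 counts. Farsa and Farsb encode the paired subunits of the cytosolic phenylalanine enzyme. Farsa had 52.6, 60.9 and 60.5 CPM in pool A and 38.5, 29.6 and 29.9 CPM in pool B, a log2 fold change of 0.96 with SE 0.22 (edgeR adjusted p 0.00066). Farsb had 41.8, 49.8 and 42.4 CPM against 56.9, 44.9 and 45.4 CPM, a log2 fold change of 0.00 with SE 0.21, and the difference between the subunits was not tested. By the structural class of the catalytic domain, 4 genes were higher with pool A, against 3 for pool B among 9 class I genes, and 3 and 3 among 10 class II genes, so 77.8% and 60.0% passed, beside the same 61.7%. Eprs, which holds both classes, was left out of this count.

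The make-up of the synthetase counts differed far more between the pools than their total did. Synthetase genes held 0.940%, 0.924% and 0.962% of all counts in the pool A libraries and 1.06%, 1.09% and 1.14% in the pool B libraries. Eprs alone held 8.61% ± 0.47 (SD, n = 3) of the synthetase counts in pool A libraries and 38.5% ± 1.4 (SD, n = 3) in pool B libraries. Tars held 21.5% ± 0.35 (SD, n = 3) in the former and 5.54% ± 0.21 (SD, n = 3) in the latter, and Qars held 10.3% ± 0.89 and 0.958% ± 0.092. With Eprs set aside, a step chosen after its values were seen, the order of the pools turned: the other synthetase genes held 0.861% ± 0.017 (SD, n = 3) of all counts in pool A libraries and 0.674% ± 0.025 (SD, n = 3) in pool B libraries. Without Tars as well, the shares were 0.658% ± 0.016 and 0.613% ± 0.025 (SD, n = 3). These shares are not scaled by transcript length, which did not come with the table.

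**Figure D2:**
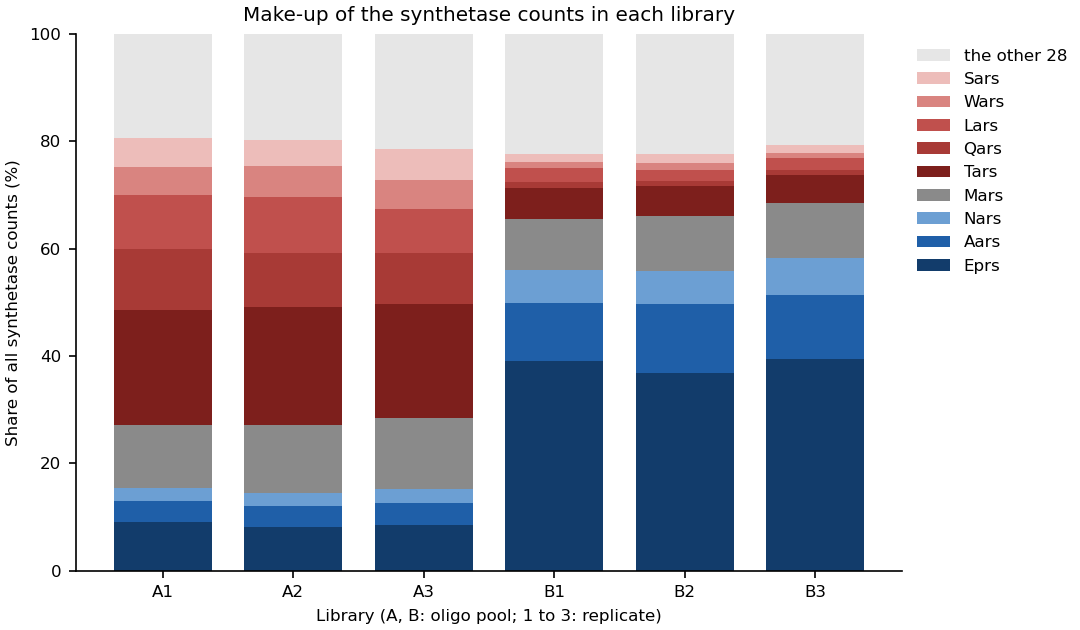
Share of all synthetase counts (vertical axis, percent) held by 9 genes and by the remaining synthetase genes together, in each of the 6 libraries. Blue shades are genes higher with pool B, red shades genes higher with pool A, dark grey is Mars and light grey the rest; Eprs grows from about 8.61% of the bar with pool A to about 38.5% with pool B while the red block shrinks.

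Mitochondrial synthetase genes gave fewer counts and fewer differences. Of 17 genes, 14 were tested; 4 were higher with pool B and 10 did not pass. Of the 9 with a mean under 100 counts 22.2% passed (Hars2 and Wars2), beside 26.5% of all tested genes at that depth. Of the 5 with more counts, Lars2 and Tars2 passed, beside 61.7% of all tested genes at that depth. Wars2 had 5.70, 10.7 and 7.53 CPM in pool A and 21.1, 20.3 and 20.1 CPM in pool B, a log2 fold change of -1.23 with SE 0.39 (edgeR adjusted p 0.0118). That call was lost without pool A replicate 1 (edgeR adjusted p 0.0578). Hars2 had 19.8, 19.4 and 15.1 CPM against 38.9, 44.9 and 49.9 CPM, a log2 fold change of -1.15 with SE 0.26. Tars2 and Lars2 had log2 fold changes of -0.85 ± 0.19 and -0.81 ± 0.19 (± SE). All 4 genes had ranges that did not overlap between the pools.

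The remaining 3 of the 17 mitochondrial genes were not tested in the main fit. Mars2 had at most 2 counts in any library. Pars2, for proline, was uneven within pool B, with counts of 55, 4 and 22 in replicates 1, 2 and 3 against 9, 1 and 6 in pool A. Yars2, for tyrosine, had counts of 16, 5 and 17 in pool A and 1, 1 and 3 in pool B, so its libraries were separated but too shallow for the filter.

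For 3 amino acids the cytosolic and the mitochondrial enzyme genes differed between the pools in opposite directions. Wars, Tars and Lars were higher with pool A, whereas Wars2, Tars2 and Lars2 were higher with pool B. Without pool A replicate 1, where Wars2 lost its call, 2 such pairs remained. Tars2 had 38.0, 36 and 40.5 CPM in pool A and 71.6, 72.3 and 83.6 CPM in pool B, the reverse of the order seen for Tars. Lars2 had 36.4, 52.2 and 62.1 CPM against 108, 89.8 and 91.6 CPM. No amino acid had both genes past the threshold in the same direction in the main fit. Histidine did in some alternative fits. Yars2 and Pars2, not tested in the main fit, entered some fits that left out a library. In some of these Yars2 passed with Yars in favour of pool A, and in some Pars2 passed with Eprs in favour of pool B. Hars and Hars2, which are neighbours in RefSeq and close relatives whose reads the counting may have divided, had log2 fold changes of -0.42 ± 0.19 and -1.15 ± 0.26 (± SE). Hars also passed in favour of pool B with total counts alone (edgeR adjusted p 0.0338) and without pool A replicate 3 (0.0196).

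**Figure D3:**
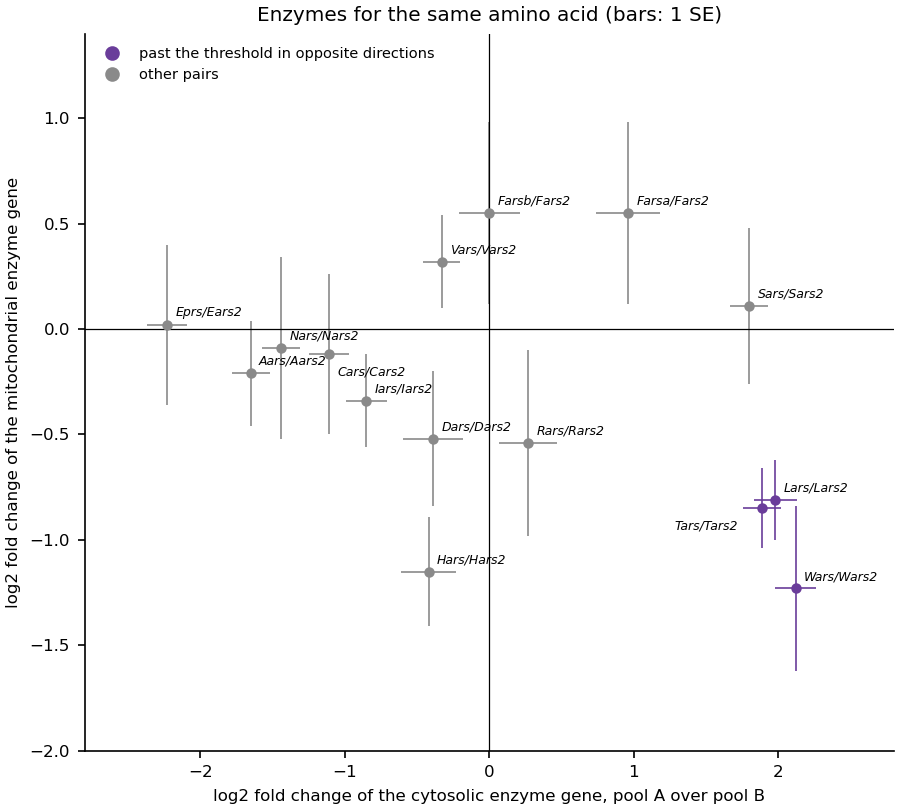
Log2 fold change (pool A over pool B) of each cytosolic synthetase gene (horizontal axis) against that of the mitochondrial gene for the same amino acid (vertical axis), with bars of 1 SE. Purple marks the 3 pairs past the threshold in opposite directions, which lie at the lower right with 1.89 to 2.12 for the cytosolic and -1.23 to -0.81 for the mitochondrial gene (Wars2 lost its call without pool A replicate 1); Fars2 is drawn against both Farsa and Farsb.

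One promoter element was found on cytosolic genes of both directions. Amino acid shortage is known to raise transcription of many cytosolic synthetase genes through the factor Atf4, which binds an element spelled TGATGNAAN. This spelling was searched on both strands of RefSeq promoters of the GRCr8 assembly, from 250 bases before to 50 bases after each start. It occurred in 7 of 17 cytosolic synthetase promoters (41.2%), in 0 of 15 mitochondrial ones and in 0 of 21 promoters of modification genes, against 3.97% of all 33469 promoters. Of the 65 members matched to a RefSeq symbol, 53 had a promoter in the table. The element was found for 2 of 7 genes higher with pool A (Tars and Yars), for 4 of 7 higher with pool B (Aars, Cars, Iars and Nars) and for Mars, which did not pass. A match describes letters and says nothing of binding. The windows are shown to set genes of both directions side by side, read along the gene's strand with the matched letters in capitals and up to 20 bases on each side:
Tars, chr2:62114802-62114850, minus strand: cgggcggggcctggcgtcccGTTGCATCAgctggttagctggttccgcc
Yars, chr5:146820181-146820212, plus strand: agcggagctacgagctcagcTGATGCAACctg
Mars, chr7:65023743-65023791, minus strand: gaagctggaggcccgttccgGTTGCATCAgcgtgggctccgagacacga
Cars, chr1:208225325-208225373, minus strand: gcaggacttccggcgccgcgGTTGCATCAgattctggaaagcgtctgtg
Iars, chr17:15193649-15193697, minus strand: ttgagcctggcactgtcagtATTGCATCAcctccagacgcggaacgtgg
Nars, chr18:60275768-60275816, minus strand: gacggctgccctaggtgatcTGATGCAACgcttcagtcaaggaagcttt
Aars, first match, chr19:55908349-55908397, plus strand: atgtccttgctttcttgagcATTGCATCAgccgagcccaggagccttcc
Aars, second match, chr19:55908470-55908518, plus strand: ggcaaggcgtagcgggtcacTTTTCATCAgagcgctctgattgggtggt

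The matches of Tars, Mars and Cars carry identical capitals, GTTGCATCA, and those of Yars and Nars are the same letters on the other strand, TGATGCAAC. Tars had a log2 fold change of 1.89, Mars one of 0.26 and Cars one of -1.11, so genes with the same capitals lay on both sides of 0.

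Among the modification genes, 6 were higher with pool A, 6 were higher with pool B and 14 did not pass, so 46.2% differed, against 52.9% of the 34 tested synthetase genes and 40.6% of all tested genes. Over 2-fold differences numbered 7 of 26 (26.9%), beside 12 of 34 (35.3%) for the synthetase genes and 25.4% of all tested genes. Depth differed between the classes, with medians of 176 counts per library for the synthetase and 76.4 for the modification genes. With a mean of at least 100 counts, 63.6% of 11 modification genes, 64.0% of 25 synthetase genes and 61.7% of all tested genes passed, still at unequal medians of 196, 626 and 219 counts. The median log2 fold change was 0.11 for the modification genes, -0.17 for the synthetase genes and 0.02 for all tested genes. For the modification genes the split of 6 and 6 became 8 and 5 with upper-quartile factors and 5 and 7 with total counts alone, and only 3 were higher with pool B without pool A replicate 1. No test of one class against the other was made.

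Trmt6 differed most in favour of pool A. It encodes the non-catalytic partner in the enzyme that methylates adenosine in the T loop of tRNA, and had 229, 199 and 236 CPM in pool A and 20.5, 23.5 and 20.4 CPM in pool B. This gave a log2 fold change of 3.52 with SE 0.17 (edgeR adjusted p 3.67e-15). The gene for the catalytic partner was not analysed here. Trmt13, which methylates a ribose in the acceptor stem, had 52.9, 69.6 and 50.5 CPM in pool A and 15.3, 17.0 and 17.0 CPM in pool B, a log2 fold change of 1.96 with SE 0.25 (edgeR adjusted p 2.68e-07). Trmt10b, a guanosine methyltransferase of the Trmt10 family, had 26.9, 21.4 and 27.6 CPM against 14.7, 11.5 and 12.1 CPM, a log2 fold change of 1.12 with SE 0.31. For these 3 genes all pool A libraries lay above all pool B libraries.

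The 3 Trmt10 genes were not alike. Trmt10a had a log2 fold change of 0.77 with SE 0.25 with overlapping ranges, 31.2 to 49.4 CPM in pool A and 23.5 to 34.0 CPM in pool B, and lost its call without pool A replicate 1 (edgeR adjusted p 0.0907) and also without replicate 1 (0.0567) or 2 (0.0565) of pool B. Trmt10c, the mitochondrial member and a subunit of mitochondrial RNase P, had a log2 fold change of -0.27 with SE 0.28 and did not pass. Whether the 3 differ from each other was not tested. Trmt1, which dimethylates guanosine, was higher with pool A by 0.63 with SE 0.19, a call lost without pool B replicate 3 (edgeR adjusted p 0.0585). Its relative Trmt1l was higher with pool B: 8.41, 15.0 and 18.5 CPM in pool A against 30.3, 33.4 and 32.2 CPM in pool B, a log2 fold change of -1.06 with SE 0.31 (edgeR adjusted p 0.00679). Without pool A replicate 1 it was -0.79 and the call was lost (edgeR adjusted p 0.0545). Trmt44, for a ribose methylation, was higher with pool A by 0.80 with SE 0.29, with overlapping ranges. It lost its call with total counts alone (edgeR adjusted p 0.0731) and without pool A replicate 3 (0.121), and also without replicate 2 (0.0972) or 3 (0.125) of pool B.

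Trmo gave the largest difference of all 60 tested genes, in favour of pool B. Its product methylates the threonyl-carbamoyl adenosine beside the anticodon. It had 8.41, 7.51 and 2.20 CPM in pool A, on counts of 31, 19 and 7, and 86.2, 117 and 106 CPM in pool B. The log2 fold change was -3.92 with SE 0.30 (edgeR adjusted p 2.77e-11). Without pool A replicate 3 it was -3.47, and Trmt6 with 3.53 then differed more. Trmt11, the catalytic subunit of a guanosine methyltransferase, had 3.53, 4.35 and 7.53 CPM in pool A and 14.7, 13.1 and 18.5 CPM in pool B, a log2 fold change of -1.46 with SE 0.46. Its call was lost without pool A replicate 1 (edgeR adjusted p 0.0569) or pool B replicate 3 (0.0664). Trmt112, the small activator that pairs with Trmt11 and other methyltransferases, had 31.7, 32.8 and 30.1 CPM against 21.8, 29.6 and 15.1 CPM, a log2 fold change of 0.68 with SE 0.28 that missed the threshold with an edgeR adjusted p of 0.0546 and passed in 6 of 14 alternative fits.

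The Nsun genes encode cytosine methyltransferases, not all of which act on tRNA. Nsun5, known for methylating ribosomal RNA, had 15.2, 19.8 and 25.1 CPM in pool A and 107, 117 and 136 CPM in pool B, a log2 fold change of -2.45 with SE 0.21 (edgeR adjusted p 1.57e-10). Nsun6, which methylates the acceptor end of a few tRNAs, had 9.77, 9.89 and 9.10 CPM against 19.8, 24.6 and 18.5 CPM, a log2 fold change of -0.97 with SE 0.36. Although its ranges did not overlap, its edgeR adjusted p of 0.0302 rose to 0.0605, 0.0598, 0.0833 and 0.0949 without pool A replicates 1, 2 and 3 and pool B replicate 2, and to 0.053 with upper-quartile factors. Nsun2, the main tRNA cytosine methyltransferase, had 106, 82.3 and 88.5 CPM against 111, 108 and 110 CPM, a log2 fold change of -0.10 with SE 0.16 that did not pass. Nsun3, Nsun4 and Nsun7 had at most 8 counts in any library and were not tested.

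Elongator modifies the wobble uridine. Elp3, the catalytic subunit, had 24.1, 25.7 and 21.3 CPM against 32.0, 40.5 and 41.2 CPM and a log2 fold change of -0.52 with SE 0.25. Its edgeR adjusted p was 0.102, and 0.0373 with total counts alone. Elp2, Elp5 and Elp6 had log2 fold changes of 0.19 ± 0.26, -0.22 ± 0.31 and 0.71 ± 0.58 (± SE) and did not pass. The deaminase genes Adat1 and Adat2, whose products turn adenosine into inosine, had log2 fold changes of 0.67 ± 0.47 and -0.03 ± 0.66 (± SE). Adat2 had between 7 and 15 counts per library, and no difference was detectable at this depth.

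The modification genes with the most CPM beside Trmt6 were even between the pools. Trmt2a, which methylates uridine in the T loop, had 164, 185 and 180 CPM in pool A and 158, 189 and 190 CPM in pool B. Trmu, the mitochondrial wobble thiolase, had 142, 127 and 132 CPM against 150, 130 and 190 CPM. Their log2 fold changes were 0.13 ± 0.14 and -0.09 ± 0.16 (± SE), and neither passed. The whole class held 0.120% ± 0.0025 (SD, n = 3) of all counts in pool A libraries and 0.123% ± 0.0080 (SD, n = 3) in pool B libraries.

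**Figure D4:**
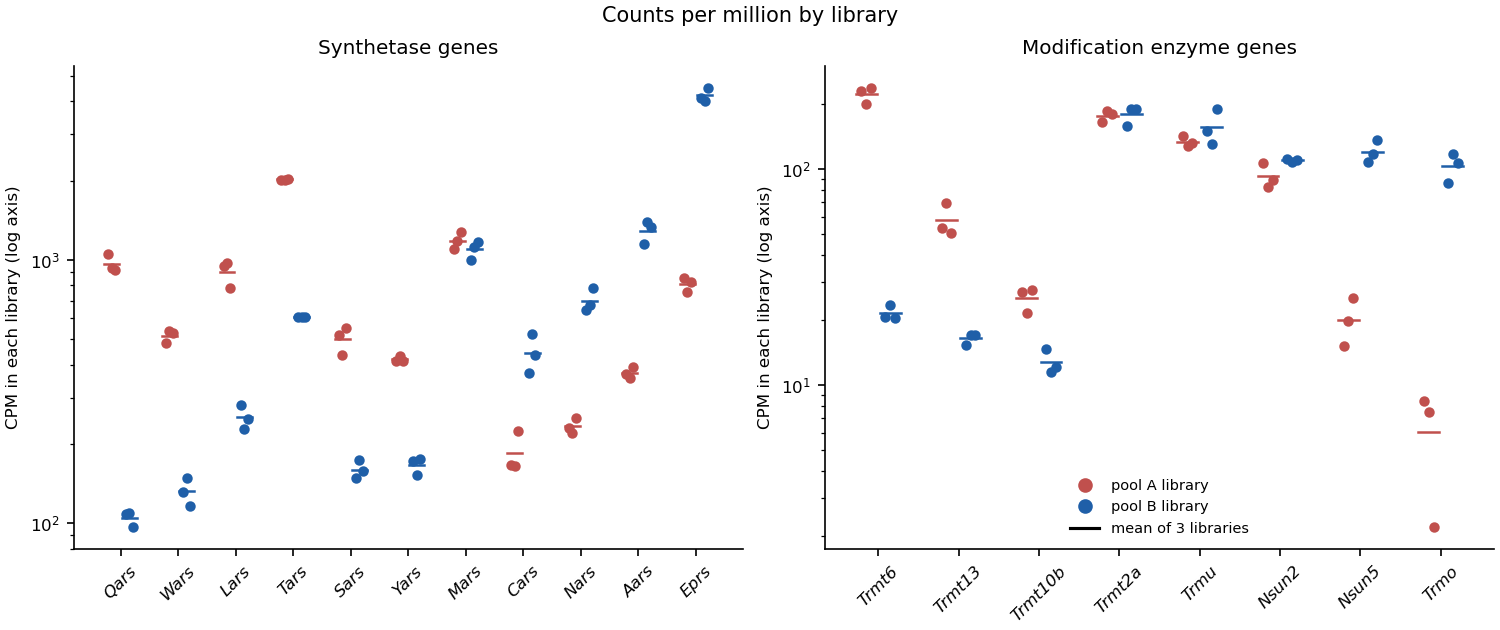
CPM in each library (vertical axis, log scale) for 11 synthetase genes and 8 modification genes, ordered by log2 fold change. Red points are the 3 pool A libraries, blue points the 3 pool B libraries and lines their means; the groups lie apart for Qars, Eprs, Trmt6 and Trmo and overlap for Mars, Trmt2a and Trmu.

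Genes next to the members went either way. Of the members that passed, 24 had a tested neighbour among adjacent protein-coding genes in RefSeq order. They gave 16 pairs in which member and neighbour both passed the threshold. Among all tested genes 40.6% passed, and the number of pairs was not tested against that share. In 8 of the pairs the direction was the same and in 8 the opposite. The neighbours named below were picked after their values were seen. Trmt6 (3.52) lies between Chgb, a secretory granule protein gene with a log2 fold change of -2.94 with SE 0.17, and Mcm8, a DNA helicase gene with 2.33 with SE 0.22. Usp19, a deubiquitinase gene beside Qars (3.36), had a log2 fold change of -2.42 with SE 0.14. Lsm2, an RNA-binding protein gene beside Vars (-0.33), had one of 4.36 with SE 0.24. Lrrc39 beside Trmt13 moved with it, at 2.40 with SE 0.40. The libraries were strand-specific per the labels, but whether counting used the strand is not stated, so reads of overlapping or antisense neighbours may be shared.

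Other genes of tRNA biology, from lists chosen by known function, also went both ways. Of 41 tested modification genes with other symbols, 7 were higher with pool A, against 9 for pool B (39.0%), with a median log2 fold change of -0.13. Pus10, a pseudouridine synthase gene, had a log2 fold change of -1.93 with SE 0.28. Qtrt1, the catalytic subunit of the queuine transferase, had 1.76 with SE 0.24, and Cdk5rap1, a methylthiolase gene, had 1.45 with SE 0.22. Of 15 tested genes of tRNA end processing, splicing and export, 5 were higher with pool A, against 4 for pool B, with a median of 0.14, so 60.0% passed beside 40.6% of all tested genes. Zbtb8os and Ddx1, which both act with the tRNA ligase, went apart, with log2 fold changes of 2.37 ± 0.27 and -1.43 ± 0.16 (± SE). Tsen15, a splicing endonuclease subunit gene, had 1.28 with SE 0.50, and its edgeR adjusted p of 0.0424 rose to between 0.0581 and 0.18 in 9 of 13 alternative fits.

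The scaffold and accessory genes of the synthetases gave 2 differences among 9 tested rows, both in favour of pool B. This share, 22.2%, stands beside 40.6% of all tested genes; both lay among the 3 genes with a mean of at least 100 counts. Aimp2, a scaffold protein of the multi-synthetase complex, had 20.3, 32.0 and 33.9 CPM in pool A against 81.5, 119 and 95.7 CPM in pool B, a log2 fold change of -1.64 with SE 0.22. Dtd1, which removes D-amino acids from tRNA, had a log2 fold change of -1.73 with SE 0.18. Genes of the Atf4 amino acid response were measured since the cytosolic synthetases are known among its targets. Of 19 tested, 8 were higher with pool A, against 6 for pool B, with a median log2 fold change of 0.28. Cebpb (2.11 ± 0.30, SE) and Ddit4 (1.64 ± 0.30, SE) were higher with pool A and Vldlr (-1.83 ± 0.18, SE) higher with pool B, while Asns, the asparagine synthetase gene, did not pass at -0.20 with SE 0.16. The share that passed was 73.7%, beside 40.6% of all tested genes and 61.7% of those with a mean of at least 100 counts, as 15 of the 19 had.

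Spread between libraries was measured last. For the 36 tested members with a mean of at least 100 counts, the median coefficient of variation between libraries was 8.64% in pool A and 11.3% in pool B. Counting error alone gives 6.09% and 6.36% at these counts. The libraries of the pools lay apart for 22 of 34 synthetase and 15 of 26 modification genes, against 49.1% of all tested genes. With a mean of at least 100 counts they lay apart for 72.0% of synthetase, 63.6% of modification and 66.5% of all tested genes. Of the 30 members that differed, 21 passed in each of the 14 alternative fits that tested them, and 9 lost the call in at least one. Trmo, among the 21, was not tested under the filter of 10 counts in every library.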

How the data were processed

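The authors deposited whole-number counts per gene for 6 libraries, with Ensembl identifiers and symbols. Reads were aligned with STAR and counted with featureCounts, per the submitters' processing notes; versions, settings, genome build and annotation are not given in the sources used here. The deposited mean per pool, a signal value, was not used. All 6 count columns matched samples by title.

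The pools were compared with edgeR 4.0.16 (R 4.3.3) on all genes: TMM scaling, the filter by pool, and the quasi-likelihood test with Benjamini-Hochberg adjustment across all tested genes. Standard errors come from the fold change and F statistic. The test was also tried on simulated data. Alternatives used DESeq2 1.42.0, limma 3.58.1 (voom), other scalings, filters, thresholds and left-out libraries. Promoters and gene order come from RefSeq (GRCr8), matched by symbol or synonym.

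The members, lists and alternatives were chosen with earlier results of these data known. Genes named are, per class, the 6 largest differences in each direction with separate ranges and a mean of at least 10 counts, the 3 with most CPM, all Elp and Adat genes, pairs of opposite direction, and 3 per list of other genes; others were named after their values were seen. Some items are not reported here. Same-numbered libraries did not deviate together (r of 0.0409, -0.0195 and 0.02), and were not treated as paired.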

Additional observations from a re-analysis of the deposited data

How the results depend on the processing

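The counts of synthetase and modification genes in each direction stayed within 1.5 times their values in most alternatives. Tested against a 1.5-fold change, by construction a stricter test, 6 synthetase genes were higher with pool B, and 2 and 3 modification genes were higher with pool A and pool B. The median log2 fold change of the modification genes was -0.03 when scaled by totals only and 0.21 with the upper quartile; these scalings put the median of all tested genes at -0.12 and 0.12, against 0.02. Leaving out a library gave 7 to 8 synthetase genes higher with pool A and 9 to 14 higher with pool B, the most without pool A replicate 3, with medians from -0.30 to -0.08. For the modification genes it gave 4 to 6 and 3 to 6, with medians from -0.03 (without pool B replicate 1) to 0.25 (without pool A replicate 1, which also gave the 3). Part of such losses follows from fewer libraries. With the replicate number as a block, 7 and 10 synthetase genes and 7 and 6 modification genes passed; Vars lost its call (edgeR adjusted p 0.0575), Tsen15 lost it (0.0642) and Trmt112 gained it (0.0481). Of 700 refits of the 44 genes named by rule, 664 kept their side of the threshold, 32 lost the call, 4 gained it and 0 called genes changed sign. Among those of the 44 that did not pass, the sign changed in 7 refits: 4 of Adat2, 2 of Trmu and 1 of Trmt2a. No member's symbol was shared by several rows. Adding Tarsl2 left the synthetase counts at 7 and 11, and no row carried a Trm-like or Adat-like synonym to add to the modification genes. Low counts limit what could be called: 26.5% of genes with a mean under 100 counts passed, against 61.7% above it.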
